A study of Mus musculus with 6 samples.

Results

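Red blood cells carried in the vessels of an embryonic organ bring their messenger RNA into any extract of that organ, and the globin and erythroid genes serve as a measure of it. Here 9 such symbols were looked up among the 23260 gene lines counted in embryonic submandibular glands (eSMGs), the paired salivary gland rudiments of the mouse. A line was found for 8 of them, and 1 further symbol is not analysed here. The 8 members were the embryonic globins Hba-x, Hbb-y and Hbb-bh1, the later alpha globin Hba-a1, the haem synthesis gene Alas2, the membrane gene Slc4a1 and the transcription factor genes Gata1 and Klf1. A filter on low counts kept 13610 genes for testing, and 6 of the 8 members passed it, whereas Gata1 and Klf1 did not.

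All eSMGs came from ICR mouse embryos at embryonic day 14 and were cultured ex vivo on a membrane, 3 tubes as the control group and 3 tubes treated with AMD3100. AMD3100 is a small-molecule antagonist of the chemokine receptor CXCR4, and it was given at 50 µM for 6 h. Each tube pooled up to 10 whole glands, so that epithelium, mesenchyme, nerves and vessels with their blood were extracted together, and the labels do not say whether the tubes came from separate litters or cultures, so that p-values measure only the spread between these samples. Reads came from 3′ ends of messenger RNA (QuantSeq, 50 bp single reads), and total counts per library were 11532946, 13127539 and 10869528 in control replicates 1 to 3 and 14393031, 11358828 and 9051595 in AMD3100 replicates 1 to 3. Rn45s, the ribosomal RNA precursor, took between 16.2% and 32.5% of the counts. Levels are given as CPM, counts scaled to a common library size after TMM normalization, and 3 counts corresponded to between 0.173 and 0.368 CPM. Because each transcript was read from its 3′ end, counts were not divided by transcript length.

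Red cells of the mouse embryo arise in waves. Primitive cells from the yolk sac carry haemoglobin made with the embryonic chains of Hba-x (zeta), Hbb-y (epsilon-y) and Hbb-bh1 (beta-h1) beside the Hba-a1 chain, whereas definitive cells from the fetal liver use the alpha chains of Hba-a1 and Hba-a2 with the beta chains of Hbb-bs and Hbb-bt, and in mid-gestation both kinds circulate together. Alas2 encodes the erythroid form of the enzyme that starts haem synthesis, Slc4a1 encodes the anion exchanger band 3 of the red cell membrane, and GATA1 and KLF1 are the factors that bind GATA and CACCC-type motifs of erythroid promoters. Circulating cells late in maturation keep globin messenger RNA after most other transcripts have been lost.

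The promoters of the globins and of Alas2 are shown so that the upstream letters the globins share can be seen. The 150 bases upstream of the start were taken from RefSeq on GRCm38.p6, the build of the deposited counts (mm10), 5′ to 3′ along the gene. Of the members, Hba-x, Hba-a1, Hbb-y, Alas2, Gata1 and Klf1 matched an entry. Capitals mark matches on either strand to the following motifs, the CACCC-type motif CCNCNCCC, the GATA motif AGATAA with its variants that begin with T, end with G or do both, the CCAAT box, and the TATA-type box as ATATAA or as the variant CATAAA. Where motifs overlap or abut, the capitals run together.
Hba-x, chr11:32276450-32276599, plus strand: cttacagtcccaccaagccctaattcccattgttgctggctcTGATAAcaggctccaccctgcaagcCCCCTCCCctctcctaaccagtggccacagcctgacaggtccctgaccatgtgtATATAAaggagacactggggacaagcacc
Hba-a1, chr11:32283522-32283671, plus strand: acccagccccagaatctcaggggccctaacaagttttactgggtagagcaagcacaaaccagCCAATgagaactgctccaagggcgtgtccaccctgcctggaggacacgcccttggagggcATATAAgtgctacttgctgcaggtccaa
Hbb-y, chr7:103853208-103853357, minus strand: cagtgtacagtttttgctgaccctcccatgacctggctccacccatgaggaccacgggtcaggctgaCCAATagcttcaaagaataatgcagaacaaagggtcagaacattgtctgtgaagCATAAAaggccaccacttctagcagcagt
Hbb-bs, chr7:103827929-103828078, minus strand: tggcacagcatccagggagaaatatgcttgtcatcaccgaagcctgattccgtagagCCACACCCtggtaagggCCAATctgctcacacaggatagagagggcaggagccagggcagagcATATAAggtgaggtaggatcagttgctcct
Hbb-bt, chr7:103813924-103814073, minus strand: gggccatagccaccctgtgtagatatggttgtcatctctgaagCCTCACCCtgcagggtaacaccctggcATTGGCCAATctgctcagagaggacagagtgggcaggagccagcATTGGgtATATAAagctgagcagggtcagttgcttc
Alas2, chrX:150547267-150547416, plus strand: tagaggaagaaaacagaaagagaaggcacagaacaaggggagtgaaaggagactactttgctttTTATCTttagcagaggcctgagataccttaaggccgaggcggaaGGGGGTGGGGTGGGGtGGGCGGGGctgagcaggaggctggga

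Of the 5 globin promoters shown, each had a TATA-type match that began 28 to 30 bases before the start, against 11% of all 32851 promoter windows of this length with such a match anywhere. CCAAT was found in all of them except that of Hba-x, against 24.5% of all windows. The GATA letters were found in Hba-x and Alas2 among those shown, against 16% of all windows, and CCNCNCCC in Hba-x, Hbb-bs, Hbb-bt and Alas2, against 38.1%. In Alas2 some of the matches to CCNCNCCC overlap one another. The upstream windows of Hba-a1 and Hba-a2 were identical at all 147 bases compared once shifted by 3 bases. A match is a description of the letters only.

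Hba-a1, on chr11:32283672-32284486 (GRCm38.p6, as for all positions here), was the dominant member in every library. Control replicates 1 to 3 held 48302, 164728 and 48490 of its counts, beside 74663, 72732 and 45430 in AMD3100 replicates 1 to 3. Among all gene lines it ranked between 3 and 13 by counts in the 6 libraries. In CPM these counts were 4229, 11999 and 4836 in control eSMGs (7021 ± 4321, SD, n = 3) and 4301, 6704 and 5579 in AMD3100-treated eSMGs (5528 ± 1202, SD, n = 3). Control replicate 2 stood well above the other 5 libraries, and the groups overlapped.

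Hbb-y, the epsilon-y chain of primitive red cells on chr7:103851754-103853207, was the highest of the embryonic globins. Control eSMGs gave 6573, 22857 and 9014 counts and AMD3100-treated eSMGs 8086, 6820 and 15010. Its level was 575.5, 1665 and 898.9 CPM in control eSMGs (1046 ± 559.5, SD, n = 3) and 465.8, 628.6 and 1843 CPM in AMD3100-treated eSMGs (979 ± 753, SD, n = 3). The highest values were AMD3100 replicate 3 and control replicate 2, so that the groups overlapped. By counts it ranked 23rd of all lines in control replicate 2 and 45th in AMD3100 replicate 3, and 103rd or lower in the others.

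Hba-x, the zeta chain of primitive red cells on chr11:32276600-32278116, lay far below Hbb-y. Control eSMGs gave 379, 1615 and 227 counts of it, beside 552, 301 and 488 in AMD3100-treated eSMGs. That gave 33.2, 117.6 and 22.6 CPM in control eSMGs (57.8 ± 52.1, SD, n = 3) and 31.8, 27.7 and 59.9 CPM in AMD3100-treated eSMGs (39.8 ± 17.5, SD, n = 3). Control replicate 2 was again the highest library, with AMD3100 replicate 3 next.

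Hbb-bh1, the beta-h1 chain and the earliest of the embryonic beta globins, on chr7:103841638-103843162, was the least abundant globin member. Its counts were 136, 353 and 41 in control eSMGs and 86, 110 and 93 in AMD3100-treated eSMGs, or 11.9, 25.7 and 4.09 CPM (13.9 ± 10.95, SD, n = 3) and 4.95, 10.1 and 11.4 CPM (8.84 ± 3.42, SD, n = 3). Control replicate 2 was the highest and control replicate 3 the lowest of the 6, so that the control group enclosed all AMD3100 values.

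Alas2, on chrX:150547417-150570622, was detected in every library but varied more than any globin. Its counts were 6, 219 and 261 in control eSMGs and 78, 89 and 227 in AMD3100-treated eSMGs. The levels were 0.525, 15.95 and 26.0 CPM in control eSMGs (14.2 ± 12.8, SD, n = 3) and 4.49, 8.20 and 27.9 CPM in AMD3100-treated eSMGs (13.5 ± 12.6, SD, n = 3), with the highest library 53.1 times the lowest. Both replicate 3 libraries were the highest of their group, and both replicate 1 libraries the lowest.

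The other members were scarce, with 0 counts in at least 2 libraries each. Slc4a1, on chr11:102348820-102365281, was counted 21, 0 and 7 times in control eSMGs and 0, 46 and 19 times in AMD3100-treated eSMGs, where 0 counts allow up to 0.219 CPM in control replicate 2 and 0.173 CPM in AMD3100 replicate 1. Klf1, on chr8:84901982-84905291, was counted 16, 0 and 6 times in control eSMGs and 12, 0 and 1 times in AMD3100-treated eSMGs. Gata1, on chrX:7959260-7976663, had 23 counts in control replicate 1 and 0 in the other 5 libraries. The library with Gata1 counts was thus the one with the fewest Alas2 counts. With Klf1 over 3 counts in 3 libraries and Gata1 in 1, no difference between the groups was detectable at this depth for either regulator, and the limits given cover counting error only.

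**Figure D1:**
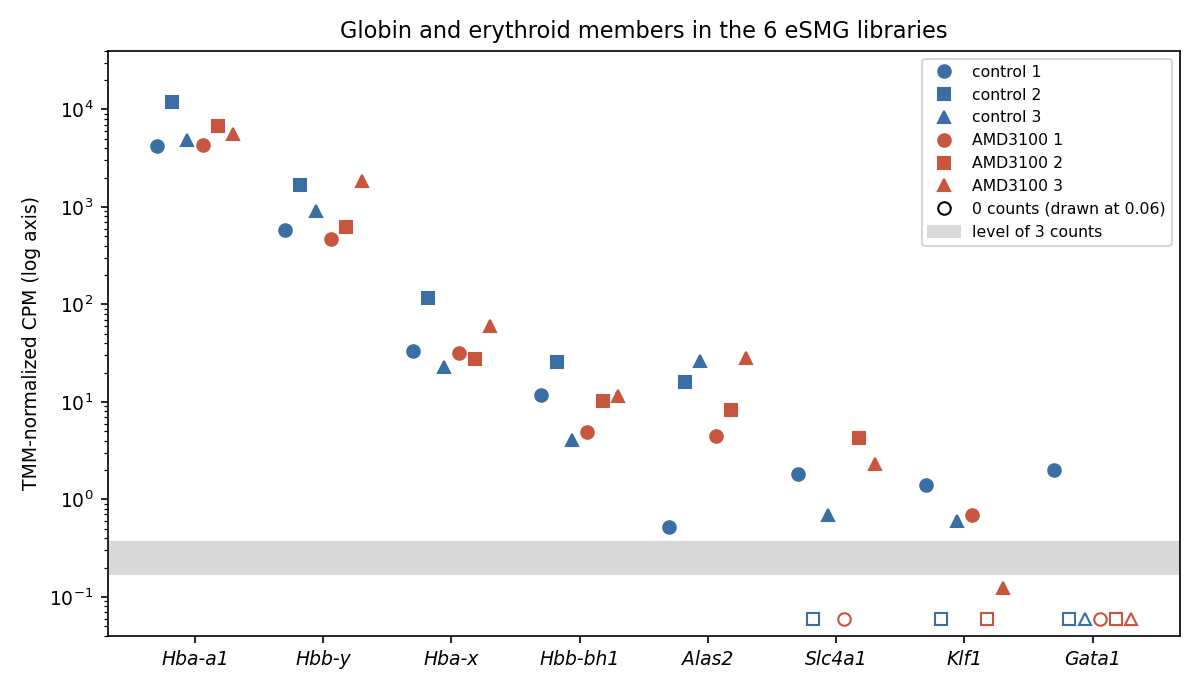
TMM-normalized CPM (log axis) of the 8 members in each of the 6 eSMG libraries, with control in blue and AMD3100 in red, circles, squares and triangles for replicates 1 to 3, and open symbols below the grey band for libraries with 0 counts; the grey band is the level of 3 counts over the libraries. Hba-a1 lies between 4229 and 11999 CPM, while Slc4a1, Klf1 and Gata1 lie at 4.24 CPM or less in every library.

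By level, the order of the group means was Hba-a1, Hbb-y, Hba-x, Alas2, Hbb-bh1, Slc4a1, Gata1 and Klf1 in control eSMGs, and Hba-a1 was above Hbb-y, and Hbb-y above Hba-x, in all 6 libraries. Hba-x was above Alas2 in every library except control replicate 3, where it was at 22.6 against 26.0 CPM. Alas2 and Hbb-bh1 did not differ beyond their spread, at 14.2 ± 12.8 against 13.9 ± 10.95 CPM in control eSMGs, nor did Slc4a1, Gata1 and Klf1, whose control means were 0.846 ± 0.928, 0.671 ± 1.16 and 0.666 ± 0.703 CPM (SD, n = 3). Relative to all genes tested, whose median SD of log2 CPM over the 6 libraries was 0.62, the spread was 0.57 for Hba-a1, 0.83 for Hbb-y, 0.88 for Hba-x, 0.94 for Hbb-bh1, 2.01 for Alas2 and 2.03 for Slc4a1.

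The comparison of AMD3100-treated with control eSMGs asked whether CXCR4 antagonism came with a different content of red cell transcripts. In bulk samples, fewer cells of a type and less RNA per cell cannot be told apart. In a quasi-likelihood fit with edgeR across all 13610 genes, 0 of the 6 members tested had a Benjamini-Hochberg adjusted p under 0.05. Of all genes tested 0 (0%) had one, 228 genes had an unadjusted p under 0.05 and DESeq2 called 5 genes, none of them a member. With the replicate number as a block 3 genes passed adjustment, again no member. The labels give no pairs, so the block follows the replicate number alone. At an unadjusted p under 0.05 with a fold change over 1.5, thresholds that the study also used beside stricter ones, 0 of the 6 members passed against 228 (1.68%) of all genes, 174 of them (1.28%) lower and 54 (0.397%) higher, and with the block 598 (4.39%) of all genes and 0 members did. Without control replicate 3 and without the block, more genes passed as higher than as lower, with 316 higher and 231 lower. The groups overlapped for all 6 members, whereas they did not overlap for 1013 (7.44%) of all genes tested, 567 (4.17%) of them lower and 446 (3.28%) higher with AMD3100.

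Hba-x had a log2 fold change of -0.54 (SE 0.61, 95% interval -1.92 to 0.84, edgeR adjusted p = 1). For Hbb-bh1 it was -0.66 (SE 0.66, interval -2.15 to 0.83), for Hbb-y -0.10 (SE 0.57, interval -1.39 to 1.20) and for Hba-a1 -0.34 (SE 0.43, interval -1.33 to 0.64). The 4 globins therefore had estimates below 0 with intervals that all held 0, as 6510 (47.8%) of all genes had an estimate below 0. Alas2 stood at -0.07 (SE 1.06, interval -2.48 to 2.34) and Slc4a1 at 1.36 (SE 1.90, interval -2.96 to 5.68), so that for these genes several-fold differences in either direction lay inside the interval. Over the 6 members the median log2 fold change was -0.22, beside 0.02 for all genes tested.

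Single libraries set the sign of the globin estimates. Without control replicate 2, the library richest in Hba-a1, Hba-x and Hbb-bh1, the log2 fold change became 0.51 for Hba-x, 0.41 for Hbb-y, 0.14 for Hbb-bh1 and 0.29 for Hba-a1. Ratios of same-numbered libraries showed the same split. For Hba-x the AMD3100 level was 0.958, 0.236 and 2.65 times that of control in replicates 1 to 3, and for Hbb-y it was 0.809, 0.378 and 2.05 times. Hbb-bh1 followed with 0.416, 0.394 and 2.79 times. Both embryonic beta globins were thus lower with AMD3100 in replicates 1 and 2 and higher in replicate 3, whereas Hba-a1 stayed closer to control, at 1.02, 0.559 and 1.15 times.

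The replicate 3 libraries of both groups differed from the other 4 libraries. The summed level of 6 mesenchymal marker genes, of which Col3a1 was the most abundant, was 1244 CPM in control replicate 3 and 1127 CPM in AMD3100 replicate 3, against 3380 to 3413 CPM in the others. The lower sums came mainly from the 3 collagen genes Col1a1, Col1a2 and Col3a1, whereas Pdgfrb was highest in control replicate 3, at 35.8 CPM, and Twist1 in the replicate 3 libraries lay within the range of the others. The sum of 8 epithelial markers was also lowest there, at 584.7 and 960.6 CPM against 1171 to 1307 CPM in the others. Not every marker was low in both, as Cdh1 was lowest in control replicate 3, at 210.6 CPM, but highest in AMD3100 replicate 3, at 506.8 CPM. Krt18 was lowest in control replicate 3, whereas in AMD3100 replicate 3 it lay within the range of replicates 1 and 2. The remaining epithelial markers were lower in both replicate 3 libraries than in any other library. With replicates 1 and 2 alone, the log2 fold change was -1.35 for Hba-x (SE 0.44, unadjusted p = 0.0106, adjusted p = 0.767 by edgeR), -1.04 for Hbb-y (SE 0.34, unadjusted p = 0.0103, adjusted p = 0.767) and -1.33 for Hbb-bh1 (SE 0.57, unadjusted p = 0.0389, adjusted p = 0.844). These 3 embryonic globins passed both thresholds there, beside 613 (4.39%) of the 13948 genes tested and 346 (2.48%) lower ones, and none passed after adjustment. Hbb-y overlapped between the groups even then, as AMD3100 replicate 2 at 628.6 CPM lay above control replicate 1 at 575.5 CPM, and Hba-x was separated by 33.2 against 31.8 CPM. For Hba-a1 the value was -0.57 (SE 0.34, unadjusted p = 0.118, adjusted p = 0.914).

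The 4 globin members made up 0.480%, 1.44% and 0.531% of all counts in control replicates 1 to 3 and 0.579%, 0.704% and 0.674% in AMD3100 replicates 1 to 3. With the 95% Wilson interval of control replicate 2 at 1.44% to 1.45%, and that of the next library at 0.699% to 0.709%, counting error was small beside the spread between tubes. Summed in control eSMGs they reached 8139 ± 4929 CPM (SD, n = 3), beside 6556 ± 1519 CPM (SD, n = 3) after AMD3100, and the groups overlapped. The 4 members without a globin chain summed to 5.78, 15.9 and 27.3 CPM in control and 5.18, 12.4 and 30.3 CPM in AMD3100-treated eSMGs. These values were highest in both replicate 3 libraries, while the globin sum was highest in control replicate 2.

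The share of the embryonic chains among the globin member counts was taken next. Hba-x, Hbb-y and Hbb-bh1 together were 12.8%, 13.1% and 16.1% of these counts in control eSMGs (14.0% ± 1.81, SD, n = 3) and 10.5%, 9.04% and 25.55% in AMD3100-treated eSMGs (15.0% ± 9.15, SD, n = 3). AMD3100 replicate 3 lay far above every other library, with a Wilson interval of 25.2% to 25.9%, and AMD3100 replicates 1 and 2 lay below all 3 control libraries. No test was made on this share, and its difference of 1.03 percentage points was far smaller than the spread in the AMD3100 group. It turned to -4.23 points without AMD3100 replicate 3. Over all globin counts, with Hba-a2, Hbb-bs and Hbb-bt included, the embryonic chains made up 8.68% ± 0.587 (SD, n = 3) in control eSMGs and 9.78% ± 5.51 (SD, n = 3) after AMD3100.

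Among the beta-type genes, Hbb-y took 19.7%, 23.5% and 14.1% of the counts in control eSMGs and 17.9%, 15.0% and 29.8% in AMD3100-treated eSMGs, the rest being almost entirely the adult-type genes Hbb-bs and Hbb-bt. The ratio of Hbb-bs to Hbb-bt, the adult beta genes of the haplotype in the reference genome, was 1.53, 1.44, 1.46 and 1.49 in replicates 1 and 2 of control and AMD3100, but 0.647 in control replicate 3 and 0.566 in AMD3100 replicate 3. The counts of alpha-type over beta-type genes divided the libraries the same way, at 1.48 to 1.74 in replicates 1 and 2 and at 0.782 and 0.923 in the replicate 3 libraries. Both ratios thus set replicate 3 of each group apart from the other libraries, as did the count of Alas2 per 1000 Hba-a1 counts, at 5.38 and 4.997 in the replicate 3 libraries and at 0.124 to 1.33 in the others. What set replicate 3 apart was not tested.

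**Figure D2:**
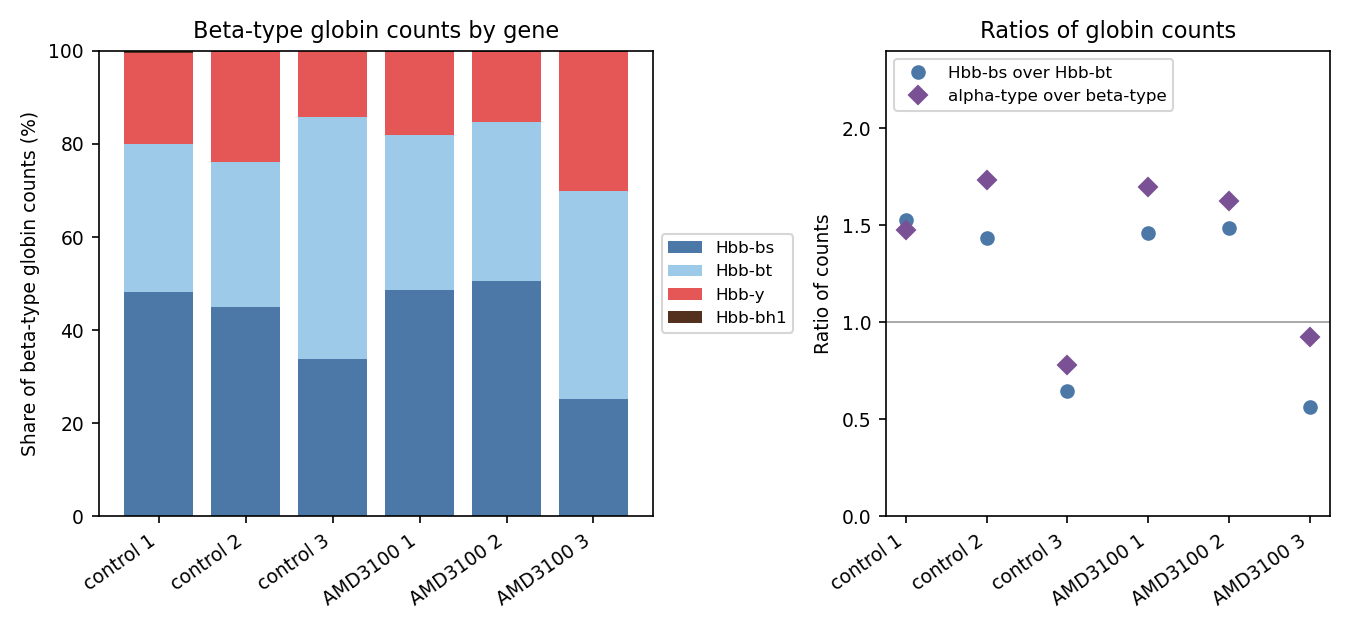
Left, the share of beta-type globin counts (%) taken by Hbb-bs, Hbb-bt, Hbb-y and Hbb-bh1 in each library, where Hbb-bh1 is at most 0.407% and hardly visible; right, the ratio of Hbb-bs to Hbb-bt counts (circles) and of alpha-type to beta-type counts (diamonds), with a line at 1. Both ratios fall below 1 in control replicate 3 and AMD3100 replicate 3 and lie between 1.44 and 1.74 in the other 4 libraries.

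Some of these splits rest on near-identical genes. Of the 50-base windows in the last 250 bases of the Hba-a1 transcript in GENCODE, 75.1% occurred exactly in Hba-a2 and 100% within 2 mismatches, and Hba-a1 took 97.2% to 98.4% of the alpha-type counts whereas Hba-a2 took 1.19% to 2.32%, so that the division between these 2 genes is uncertain. No such window was shared by Hba-x, Hbb-y or Hbb-bh1 with the other globin transcripts compared. Hbb-b1 shared 20.9% of its windows exactly with Hbb-b2 and 37.3% within 2 mismatches. How reads that fit more than 1 gene were counted is not given in the sources used here, so that the ratio of Hbb-bs to Hbb-bt is uncertain as well. Hbb-b1 had 0.991 to 0.998 times the counts of Hbb-bs and Hbb-b2 0.993 to 0.999 times those of Hbb-bt. For this reason Hbb-b1 and Hbb-b2 were left out of the sums.

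A wider list of 86 erythroid genes put the members in context. Of these, 82 had a line, 61 were tested, and 3 (Hbb-bh2, Epb4.2 and Gfi1b) were at 0 in every library. Of the 61, 30 had an estimate above 0 and 31 below, with a median log2 fold change of -0.01, 0 passed adjustment, and 2 (3.28%, beside 1.68% of all genes) passed both thresholds, both lower with AMD3100. Without control replicate 3, 5 of 66 list genes passed, 3 higher and 2 lower, beside 547 of all 14256 genes, 316 higher and 231 lower. With replicates 1 and 2 only, 5 of 64 passed, 3 higher and 2 lower, beside 613 (4.39%) of all 13948 genes, 267 higher and 346 lower. The groups did not overlap for 4 of the 61 (6.56%, beside 7.44% of all genes). With the replicate number as a block, 4 list genes passed both thresholds, 3 of them lower (Mgst3, Ldb1 and Nt5c3) and Fam210b higher, beside 598 (4.39%) of all genes, 395 (2.9%) of them lower.

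Mgst3, a microsomal glutathione transferase, was one of the 2 genes, counted 82, 101 and 46 times in control eSMGs but 3, 14 and 9 times after AMD3100. Its log2 fold change was -2.91 (SE 0.93, unadjusted p = 0.0127, adjusted p = 1 by edgeR), and every AMD3100 library was below every control library. Ldb1, a cofactor that joins GATA1 and TAL1 complexes and is also expressed in many other cell types, was counted 375, 552 and 131 times in control eSMGs and 91, 155 and 33 times after AMD3100. It stood at -1.87 (SE 0.60, unadjusted p = 0.0128, adjusted p = 1), with AMD3100 replicate 2 at 14.3 CPM above control replicate 3 at 13.1 CPM. Within same-numbered pairs the AMD3100 level of Ldb1 was 0.160, 0.355 and 0.310 times that of control. With the replicate number as a block its log2 fold change was -1.94 (edgeR unadjusted p = 0.000268, adjusted p = 0.207). Neither gene is restricted to red cells, and neither reached significance after adjustment.

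The other globins all had estimates below 0. None of the 5 tested passed both thresholds in the edgeR fit on condition alone across all 6 libraries. Hba-a2, whose division from Hba-a1 is uncertain, had the lowest estimate, at 62.95, 193.3 and 115.5 CPM in control eSMGs and 79.6, 81.3 and 68.5 CPM after AMD3100, with a log2 fold change of -0.70 (SE 0.40, interval -1.61 to 0.22). Without control replicate 1 it passed both thresholds (-1.02, edgeR unadjusted p = 0.0229, adjusted p = 0.9997). It also did with replicate 3 as a batch (-0.70, edgeR unadjusted p = 0.0406, adjusted p = 0.734). Hbb-bs, at 1415, 3187 and 2146 CPM in control and 1262, 2124 and 1563 CPM in AMD3100-treated eSMGs, had a log2 fold change of -0.45 (SE 0.37). Hbb-bt, at 926.6, 2219 and 3315 CPM against 863.3, 1431 and 2763 CPM, had -0.35 (SE 0.54), and Hbb-b1, whose counts nearly repeat those of Hbb-bs, had -0.44 (SE 0.37). For both Hbb-bs and Hbb-bt the AMD3100 library was the lower one in each of the 3 same-numbered pairs. With the replicate number as a block their unadjusted p was 0.0035 and 0.016 by edgeR, with an adjusted p of 0.437 and 0.682.

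In haem synthesis and iron handling, 11 of 20 genes had an estimate above 0 and 9 below. None passed both thresholds in the edgeR fit on condition alone across all 6 libraries. Uros, an enzyme midway in the pathway, had the lowest estimate, with 46, 67 and 10 counts against 20, 2 and 3 and a log2 fold change of -2.49 (SE 1.24, edgeR unadjusted p = 0.0753), and it passed both thresholds with DESeq2 (-2.51, unadjusted p = 0.028, adjusted p = 0.9997). The iron-storing ferritin chains Fth1 (468 ± 210 against 457 ± 135 CPM, SD, n = 3) and Ftl1 (395 ± 27.3 against 417 ± 103 CPM) were the most abundant, followed by Alad, the enzyme after the Alas2 step, at 34.8 ± 15.0 against 48.7 ± 6.08 CPM (log2 fold change 0.48, SE 0.36). Each is expressed well beyond red cells. Without control replicate 3, Alad (0.88, edgeR unadjusted p = 0.0293) and Trf (2.99, unadjusted p = 0.0164) passed both thresholds as higher. With replicates 1 and 2 only, Alad (0.79, edgeR unadjusted p = 0.0241) and Urod (0.74, unadjusted p = 0.0245) did so. None of these passed after adjustment. Cpox, a later enzyme of the pathway, was lower in all 3 AMD3100 libraries than in any control library, at 13.1 to 14.3 against 15.9 to 19.4 CPM, with a log2 fold change of -0.39 (SE 0.33).

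Among the 23 genes of the red cell membrane and its skeleton, 11 were tested, 4 with an estimate above 0 and 7 below, and none passed both thresholds. The abundant ones were genes not restricted to red cells, Epb4.1 at 267 ± 82.1 against 278 ± 128 CPM, Tmod1 at 64.4 ± 52.2 against 73.5 ± 55.8 CPM and Mpp1 at 26.1 ± 10.5 against 24.3 ± 13.1 CPM (SD, n = 3). Tmod1, a cap of actin filaments, was at 124 and 137.9 CPM in the replicate 3 libraries and at 27.0 to 42.3 CPM in the others. Rhag and Kel, which encode red cell surface proteins, were scarce like Slc4a1 and reached at most 14 and 4 counts in any library.

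Of the 11 transcription regulators tested, 6 had an estimate above 0 and 5 below, and only Ldb1 passed both thresholds. By mean over all 6 libraries the most abundant were Klf3 (82.2 ± 63.2 against 101 ± 72.0 CPM), Bcl11a, a repressor of embryonic and fetal globin genes (27.9 ± 17.1 against 32.8 ± 20.2 CPM), and Cbfa2t3 (21.7 ± 8.71 against 23.6 ± 5.98 CPM, SD, n = 3). Klf3 and Bcl11a were both low in the replicate 3 libraries, Klf3 at 10.5 and 20.9 CPM against 106 to 160 CPM in the others.

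Of the other erythroid genes, 14 of 21 were tested, 9 with an estimate above 0 and 5 below. Prdx2, an abundant antioxidant enzyme of red cells, was at 263 ± 71.5 against 303 ± 62.9 CPM, and Xpo7, a nuclear exporter, at 82.8 ± 10.4 against 90.1 ± 2.08 CPM (SD, n = 3). Bnip3l, a receptor for the clearance of mitochondria, was lower in every AMD3100 library, at 50.8 to 65.0 against 70.4 to 78.5 CPM (log2 fold change -0.37, SE 0.26). Gdf15, a growth factor family member induced by stress, was higher in every AMD3100 library, at 4.15 to 9.12 against 1.09 to 3.94 CPM, with a log2 fold change of 1.04 (SE 0.75) and an unadjusted p of 0.199. Epor, the erythropoietin receptor, did not pass the filter, counted 17, 0 and 8 times in control eSMGs and 14, 0 and 1 times after AMD3100.

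**Figure D3:**
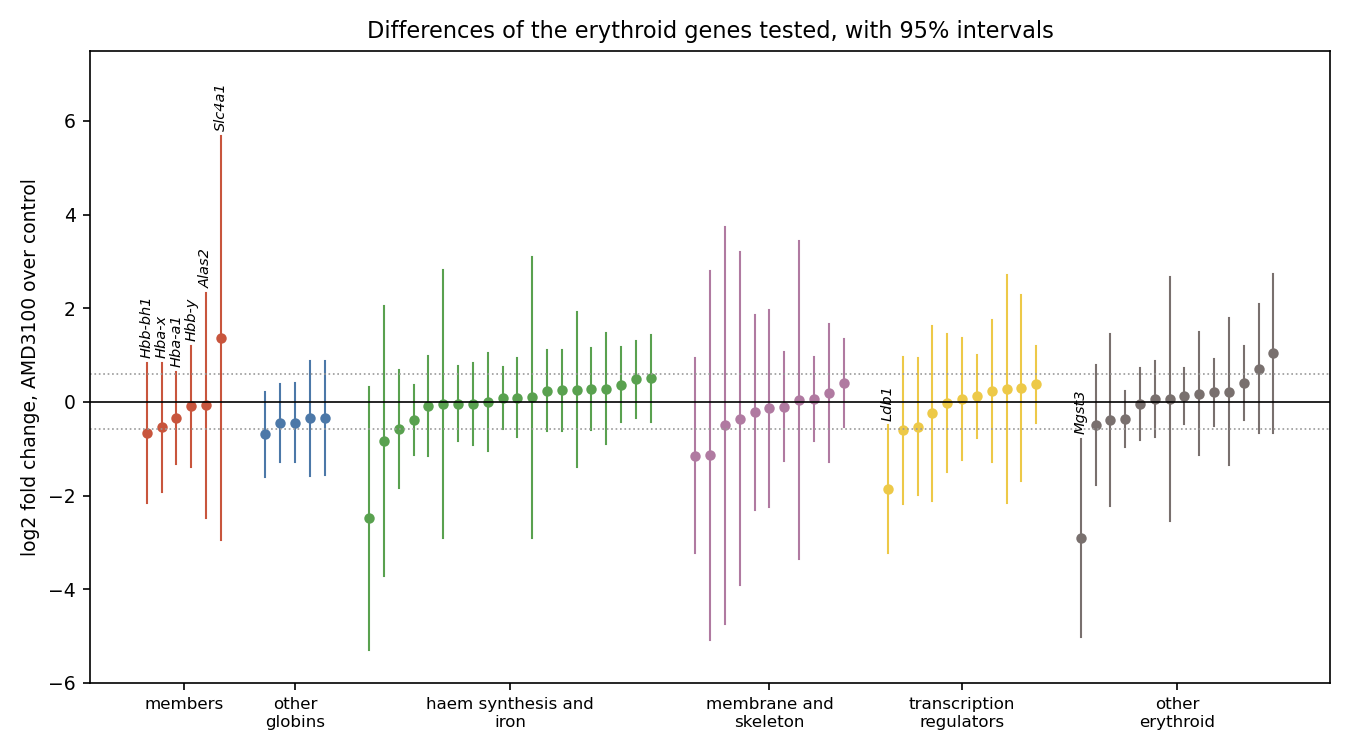
Log2 fold change (AMD3100 over control) of the 6 members tested and of the 61 tested genes of the erythroid list by role, each point with its 95% interval from the edgeR fit; dotted lines mark a fold change of 1.5 in either direction. All 6 members have intervals across 0, and Mgst3 at -2.91 and Ldb1 at -1.87 are the labelled genes of the list whose intervals lie below 0.

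Marker lists of the other cell types were summed in the same libraries. The summed level of 8 endothelial markers, the lining of the vessels that hold the blood, was 50.4, 27.8 and 47.5 CPM in control and 25.7, 58.7 and 23.0 CPM in AMD3100-treated eSMGs, so that control replicate 2, the highest in globin, was among the lower ones. Kdr was the most abundant of them over all 6 libraries, while Pecam1 was higher in the control mean, at 12.3 against 9.01 CPM. Of the 8, 5 were detected in every library. The sum of 8 epithelial markers, led by Cdh1, was 982 ± 345 CPM without and 1179 ± 190 CPM with AMD3100 (SD, n = 3), with all 8 detected in every library. Cdh1 itself did not overlap between the groups, at 210.6 to 337 CPM in control and 344.1 to 506.8 CPM in AMD3100-treated eSMGs. Its log2 fold change was 0.55 (SE 0.31, edgeR unadjusted p = 0.108), and 0.56 with the replicate block (unadjusted p = 0.0253, adjusted p = 0.703). It did not pass both thresholds in either fit.

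Of the other blood lineages, the 9 macrophage markers summed to 128.8, 110.1 and 247.7 CPM in control and 118.7, 141.9 and 221.8 CPM in AMD3100-treated eSMGs. All 9 had counts in every library, although Mrc1 had only 2 in control replicate 2, under the level of 3 counts. The higher sums of both replicate 3 libraries came mainly from C1qa, at 122.7 and 95.05 CPM there against 14.0 to 23.0 CPM in the others, and from Cx3cr1, at 51.06 and 64.1 against 20.2 to 34.7 CPM, whereas Adgre1 and Ptprc were lowest in the replicate 3 libraries. The 8 platelet and megakaryocyte markers, whose most abundant gene was Gp1bb, summed to 34.5 ± 10.7 against 40.1 ± 4.47 CPM (SD, n = 3), with the defining genes Gp9 and Gp6 at 0 in every library. The 6 neutrophil markers summed to 9.19, 28.5 and 20.7 CPM in control and 43.3, 28.4 and 9.82 CPM in AMD3100-treated eSMGs, led by S100a9 and S100a8, which were close in mean level, and with Elane at 0 throughout. The 6 progenitor markers, led by Cd34, which vessels also express, summed to 154 ± 35.5 against 146 ± 23.4 CPM. None of the tested genes of these 7 lists passed both thresholds, and the groups overlapped in each of the 7 sums. With the replicate number as a block, Twist1 of the mesenchymal list passed both (log2 fold change -0.97, edgeR unadjusted p = 0.0193, adjusted p = 0.703), against -0.87 (unadjusted p = 0.097) without it, and it was lower with AMD3100 in each of the 3 same-numbered pairs. Whether these cells had a part in the globin values was not tested.

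**Figure D4:**
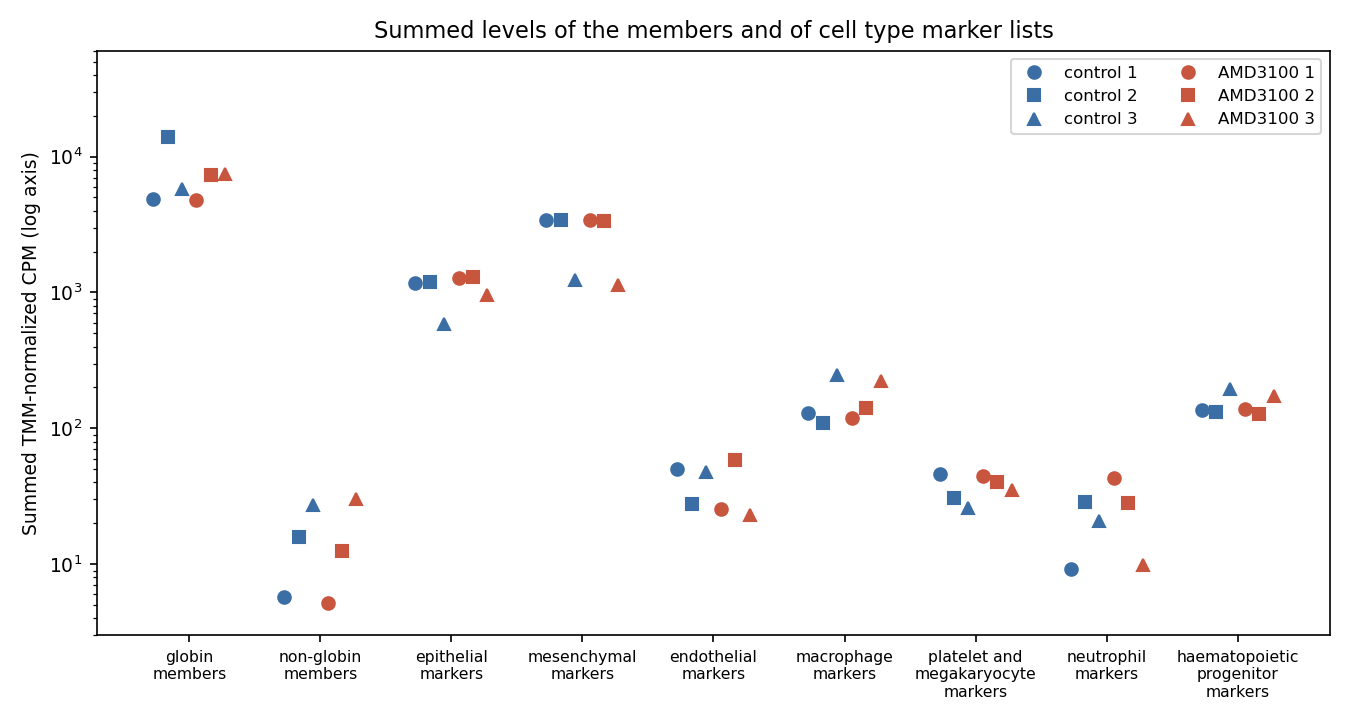
Summed TMM-normalized CPM (log axis) of the 4 globin members, the 4 other members and the 7 marker lists in each library, with control in blue, AMD3100 in red and circles, squares and triangles for replicates 1 to 3. The mesenchymal sum is lower in both replicate 3 libraries (1244 and 1127 CPM) and the macrophage sum higher (247.7 and 221.8 CPM, mainly through C1qa), while the globin sum is highest in control replicate 2.

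Over the 6 libraries the levels of the globin members were positively correlated, to differing degrees. Control replicate 2 was the highest library for Hba-a1, Hba-x and Hbb-bh1, but not for Hbb-y. As a description, with points that share library depth and replicate number, the Pearson correlation of log2 CPM was 0.84 between Hba-x and Hbb-bh1, 0.79 between Hba-x and Hba-a1, 0.77 between Hbb-bh1 and Hba-a1, 0.75 between Hba-x and Hbb-y, 0.63 between Hbb-y and Hba-a1 and 0.55 between Hbb-y and Hbb-bh1. Alas2 had its highest value with Hbb-y (0.69) and Slc4a1 lay between -0.40 and -0.02 with all others. The 10 genes closest to the mean profile of the tested members were Rabgap1, Zfp280b, Tmsb15b2, Tmco1, Glcci1, Mapk1ip1, Ubtd1, Sik3, Chmp6 and Uhrf1bp1, with correlations from 0.979 to 0.925 over 6 libraries among the genes with a mean of at least 5 CPM. Of these 10, 0 were in the erythroid list. The profile was an unscaled mean, so that Alas2 and Slc4a1, which varied most, weighed more in it than the globins. Rabgap1, the closest, ranged only from 75.3 to 97.1 CPM, and Zfp280b from 2.63 to 11.3 CPM. Hbb-bt ranked 196th at 0.74 and Hbb-bs 576th at 0.61 of 10236 genes, a pair looked up after their values were seen.

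Cxcr4, the receptor that AMD3100 blocks, was at 28.9, 10.3 and 30.3 CPM in control and 17.7, 15.0 and 16.2 CPM in AMD3100-treated eSMGs, with a log2 fold change of -0.50 (SE 0.44, edgeR adjusted p = 1). Its ligand gene Cxcl12 was at 114.5, 106.6 and 174.6 against 98.1, 123.1 and 79.9 CPM, with -0.39 (SE 0.32). The groups overlapped for both. Control replicate 2, the library highest in globin, was the lowest in Cxcr4.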

How the data were processed

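The 6 libraries of ICR mouse eSMGs at embryonic day 14 (3 control, 3 AMD3100) were analysed. The authors deposited raw read counts per gene symbol, and the submitters' processing notes name Bowtie2, edgeR and mm10, with the annotation not given in the sources used here. Of 23282 lines, 22 that repeated an earlier line were dropped. Counts were tested with edgeR 4.0.16 in R 4.3.3 (filterByExpr, TMM, glmQLFit and glmQLFTest on condition alone, Benjamini-Hochberg over 13610 genes); limma 3.58.1, after the quantile normalization that the study's methods name, and DESeq2 1.42.0 gave alternatives. The biological coefficient of variation was 0.579. CPM used TMM-scaled totals, and log2 CPM a prior count of 2. Intervals of shares are Wilson intervals and cover counting error only.

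The members, gene lists and alternatives were chosen with earlier results of these data known. The text names all members, of each role group the 3 genes highest in mean CPM and any past both thresholds or with groups apart and a fold change over 1.5, the 10 genes most alike, the leading and absent markers, and Cxcr4, Cxcl12 and Rn45s. Cpox, Rhag, Kel, Epor, Fam210b, Nt5c3, Hba-a2, Uros, Urod, Trf, Twist1, Col1a1, Col1a2, Pdgfrb, Krt18, Pecam1, Cx3cr1, Adgre1, Ptprc, Mrc1, S100a8 and the likeness of Hbb-bs and Hbb-bt were added after their values were seen. Deviations of same-numbered libraries from their group means correlated across genes at 0.185, 0.171 and 0.584 for replicates 1 to 3. Control replicate 2 with AMD3100 replicate 1 gave 0.198, and control replicate 1 with AMD3100 replicate 2 gave 0.146. These values set replicate 3 apart but do not pair replicates 1 and 2 by number, and the labels give no pairs. The replicate block and the same-numbered pairs thus follow the replicate number alone. Replicate 3 as a batch, Hbb-b1 and Hbb-b2 left out, and replicates 1 and 2 alone for summed values were added after seeing the data.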

Additional observations from a re-analysis of the deposited data

How the results depend on the processing

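No member passed an adjusted p under 0.05 in any of the 17 alternatives run for each, where the lowest adjusted p was 0.767, and no list gene did. Genes of the whole table called after adjustment were 0, but 5 with DESeq2, 3 with the replicate block and 7 with replicate 3 as a batch, an alternative added after seeing the data; leaving out 1 library gave 0 each time. The 228 genes past both thresholds became 598 with the replicate block, 613 with replicates 1 and 2 only and 564 with replicate 3 as a batch, and 163 to 547 with 1 library left out (547 without control replicate 3, 316 of them higher, 451 without AMD3100 replicate 3). The 2 list genes became 3 with DESeq2, 1 with at least 10 counts required in every library, which removes Mgst3, 4 with the replicate block, 5 with replicates 1 and 2 only, 4 with replicate 3 as a batch and 1 to 5 with 1 library left out (1 without control replicate 2, 5 without control replicate 3). Log2 fold changes with 1 library left out ran from -0.97 to 0.51 for Hba-x, -0.95 to 0.41 for Hbb-y, -1.09 to 0.14 for Hbb-bh1, -0.61 to 0.29 for Hba-a1, -1.18 to 0.72 for Alas2 and 0.46 to 2.63 for Slc4a1. Signs reversed without control replicate 2 (Hba-x 0.51, Hbb-y 0.41, Hbb-bh1 0.14, Hba-a1 0.29, Alas2 0.02), and for Hbb-y without AMD3100 replicate 1 (0.24) or 2 (0.16). Alas2 also reversed with limma-voom after quantile normalization (0.47), the replicate block (0.44), and without control replicate 3 (0.72), AMD3100 replicate 1 (0.35) or 2 (0.19); the cause was not tested. Beside the counts and Twist1 of the mesenchymal markers (-0.97, unadjusted p = 0.0193), the replicate block changed no call of a member or a marker gene. The globin sum (log2 difference -0.18), the sum of the other members (-0.12) and the embryonic share (1.03 points) moved by less than 1 SD in all 9 alternatives, but signs turned: the globin sum to 0.28 without control replicate 2 and 0.03 without AMD3100 replicate 1, the other members' sum to 0.38 without control replicate 3 and 0.51 without AMD3100 replicate 1, and the share to -4.23 without AMD3100 replicate 3 and -3.19 with replicates 1 and 2 only. The embryonic share is a ratio of counts within a library, so the 2 alternatives that rescale CPM could not change it. Depth limits Slc4a1, Gata1 and Klf1 most.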
